A study of Mus musculus with 15 samples.

Results

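The 10 genes described here are the TET enzymes and their closest partners in the removal of cytosine methylation: Tet1, Tet2, Tet3, Tdg, Ogt, Mgea5, Cxxc4, Cxxc5, Idh1 and Idh2. They were taken by name from a table of 26061 mouse genes, and all 10 were among the 19490 genes that were tested. RNA came from E14, a mouse embryonic stem cell (ESC) line of 129/Ola background grown without feeder cells in serum and LIF. Every group was infected with lentivirus carrying a pLKO.1 short hairpin vector and selected with puromycin from 24 h after infection, for 3 days. The shScr group carried a non-targeting hairpin, the shTet1 group a hairpin against Tet1 and the shTet2 group a hairpin against Tet2, with 5 libraries in each. Each gene was targeted by 1 hairpin, so an effect of the hairpin sequence and an effect of the lost transcript cannot be told apart. RNA was extracted by either of 2 methods, and the labels do not say which library had which.

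TET enzymes are dioxygenases that oxidise methylated cytosine in DNA, first to hydroxymethylcytosine and then to formylcytosine and carboxylcytosine. The last 2 of these bases are cut out by thymine DNA glycosylase and replaced with unmodified cytosine through base excision repair, whereas hydroxymethylcytosine can also be lost by dilution during replication. The reaction consumes oxygen and α-ketoglutarate and needs iron. TET1 and TET2 are the main TET enzymes of mouse ESCs, where they bind the O-GlcNAc transferase OGT, while TET3 is best known from the oocyte and the zygote.

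RefSeq starts of the TET genes are shown here because the 3 windows differ in how many CpG dinucleotides they hold. TET enzymes act on the cytosine of a CpG where it is methylated, which was not measured in these RNA libraries. These starts are on another build than the gene spans given below and were not aligned with them. The Tet1 window in particular may lie inside the gene whose reads were counted, so the 3 windows need not be like gene starts. RefSeq promoters (build GRCm38.p6, from 250 bases before to 50 bases after the transcript start) could be matched for 9 of the 10 genes, with 11 promoters in all. The windows are chr10:62887275-62887574 for Tet1, chr3:133544341-133544640 for Tet2 and chr6:83441629-83441928 for Tet3, each on the minus strand and printed 5′ to 3′ with every CpG in capitals.
Tet1: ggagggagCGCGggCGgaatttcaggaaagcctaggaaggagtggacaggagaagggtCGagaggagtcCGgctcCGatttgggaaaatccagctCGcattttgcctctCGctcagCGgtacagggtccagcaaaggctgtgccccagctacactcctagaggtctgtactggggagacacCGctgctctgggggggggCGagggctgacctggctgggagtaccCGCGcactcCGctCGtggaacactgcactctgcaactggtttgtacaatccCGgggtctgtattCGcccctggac
Tet2: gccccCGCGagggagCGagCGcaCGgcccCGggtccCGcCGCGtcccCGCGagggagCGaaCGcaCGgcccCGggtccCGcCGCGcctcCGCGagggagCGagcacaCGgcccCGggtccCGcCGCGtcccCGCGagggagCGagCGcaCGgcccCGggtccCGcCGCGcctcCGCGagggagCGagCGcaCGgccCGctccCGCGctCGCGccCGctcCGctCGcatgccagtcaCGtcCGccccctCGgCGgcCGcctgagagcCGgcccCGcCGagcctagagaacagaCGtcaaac
Tet3: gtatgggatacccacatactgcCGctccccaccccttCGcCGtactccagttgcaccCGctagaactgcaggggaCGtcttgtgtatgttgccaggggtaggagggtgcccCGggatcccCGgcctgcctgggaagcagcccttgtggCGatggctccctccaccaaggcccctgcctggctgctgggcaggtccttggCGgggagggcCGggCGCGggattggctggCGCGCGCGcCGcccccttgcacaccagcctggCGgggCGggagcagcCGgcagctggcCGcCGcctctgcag
The Tet2 window held 57 CpGs, against 17 in that of Tet1 and 22 in that of Tet3. Among 32851 mouse promoters of the same length the median was 7 CpGs and the upper quartile was 20, and 0.152% of them had as many as Tet2. The promoters of the other genes matched held 14 to 26 CpGs. The letters GGGCGG, the core of a GC box, which itself holds a CpG, stood on either strand of 10 of the 11 promoters and of 35.7% of all promoters. The letters TATAAA stood on either strand of 0 of the 11 promoters and of 13.6% of all. No result below was tested against these sequences.

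Gene reads ranged from 15258291 to 35432425 per library, the lowest and the highest both in shTet2 (replicates 3 and 4). Odorant and pheromone receptors (1439 olfactory and vomeronasal genes), which are not thought to act in ESCs, took 53.3 to 63.4 of every 1000000 gene reads in 4 libraries (shScr replicate 4, shTet1 replicates 3 and 4, shTet2 replicate 4) and 9.43 to 26.3 in the other 11. In all groups, replicates 1 and 2 stood apart from replicates 3 to 5 on the leading component of the differences within groups, which held 37.9% of their variance, and differences are therefore also given within these sets of replicates for the genes in which they were far apart. The summed normalised reads of 6 ESC markers (Pou5f1, Sox2, Zfp42, Esrrb, Utf1, Tdgf1) ranged from 73237 to 102245 in shScr, from 84607 to 109742 in shTet1 and from 67869 to 92904 in shTet2. Markers of other cell types were at most 349 for fibroblasts, 652 for primitive endoderm and 737 for trophoblast. The 6 primitive endoderm markers summed to 264–652 in shScr, 242–454 in shTet1 and 92.3–284 in shTet2. In shTet2 against shScr all 6 of them had a negative difference. An unadjusted p under 0.05 by limma was found for 4, against 11.6% of all genes tested, but 0 genes of any marker list passed the threshold in any comparison. Their part in the results below was not tested. In these bulk libraries, fewer cells with a transcript and less of it per cell cannot be told apart.

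To compare the genes with one another, recovered reads were divided by the length of their merged exons in kilobases and scaled to 1000000 gene reads per library (RPKM). On this per-length scale the order in shScr was Mgea5 (74.1 ± 13.5), Idh1 (70.5 ± 11.5), Tet2 (49.9 ± 6.72), Tet1 (49.5 ± 7.53), Ogt (31.7 ± 2.82), Idh2 (26.9 ± 3.18), Cxxc5 (11.2 ± 2.32), Tdg (3.93 ± 0.624), Tet3 (0.486 ± 0.212) and Cxxc4 (0.0454 ± 0.0468) RPKM (SD, n = 5 each). Neighbours from Mgea5 to Tet1 overlapped in their 5 libraries, as did Ogt and Idh2, whereas Cxxc5, Tdg, Tet3 and Cxxc4 each lay below all libraries of the gene before. Among the tested genes in shScr, Mgea5 stood at the 94.9th percentile, Tet2 and Tet1 both at the 92.3rd, Tdg at the 59.7th, Tet3 at the 35.5th and Cxxc4 at the 13.3rd. The TET genes thus split into an abundant pair and a scarce member in control cells. The order depended in part on the length used, since the longest transcript in place of the merged exons put Idh1 first and raised Ogt to 47.3 and Idh2 to 38.9 in shScr.

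**Figure D1:**
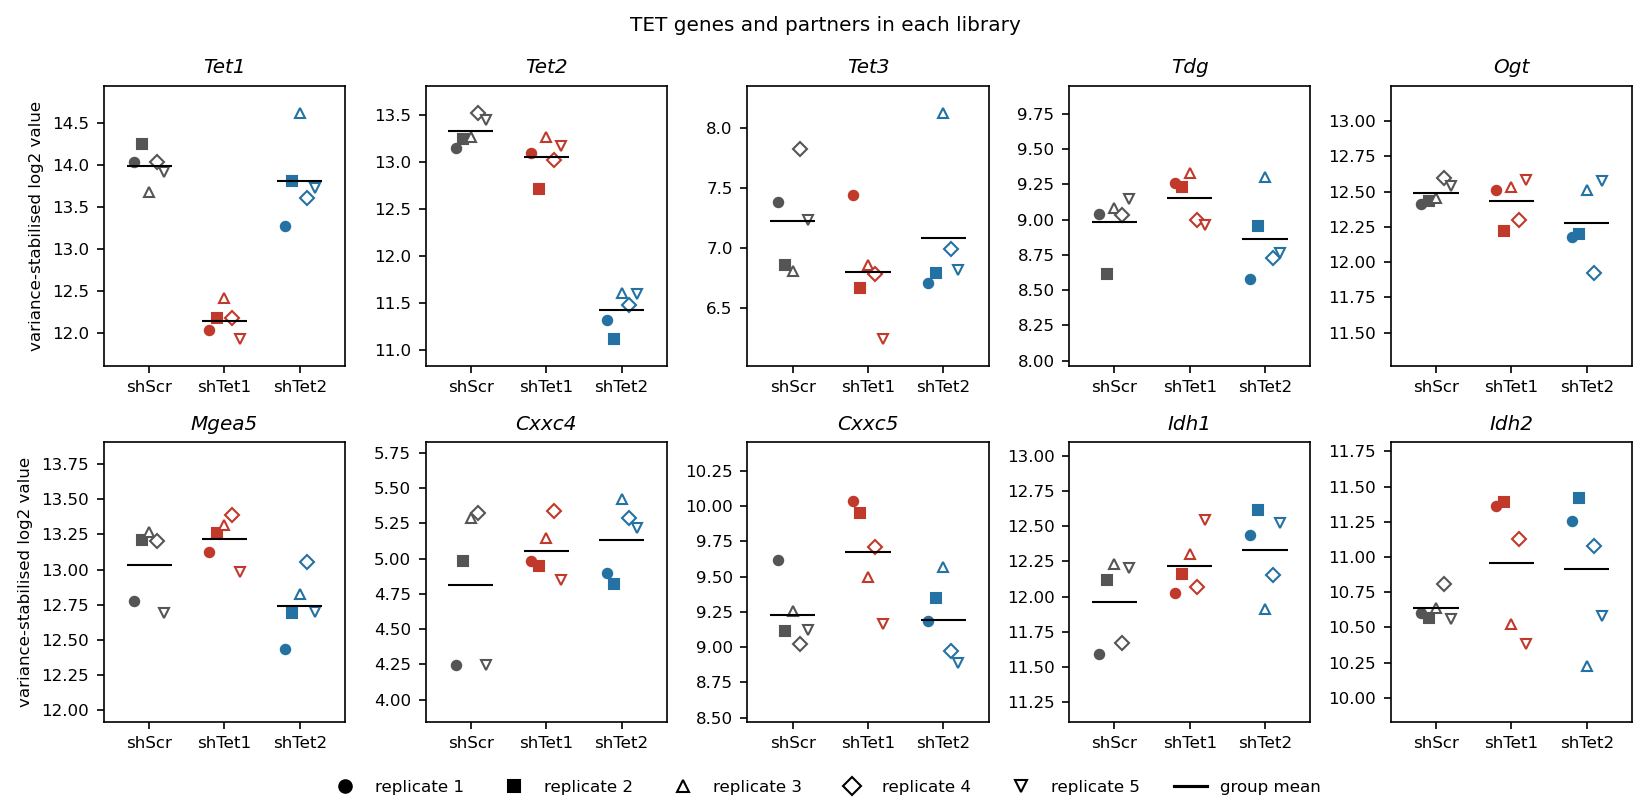
Variance-stabilised log2 value (y axis) of each of the 10 genes in the 15 libraries, by group (x axis). Points are single libraries with a marker shape per replicate number (filled for replicates 1 and 2), and bars are group means of 5 libraries. The 5 shTet1 libraries lie apart from the others for Tet1 (11.93 to 12.41) and the 5 shTet2 libraries for Tet2 (11.12 to 11.61), and the groups overlap for the other 8 genes. Each panel has its own axis range.

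Tet1 and Tet2 were the targets of the hairpins, and their RNA was examined first as a check of the labels. Values are on the deposited variance-stabilised scale, which approaches log2 for well-covered genes and understates the differences of genes with few reads. Tet1 (chromosome 10, 62267318 to 62361866, mm9, minus strand) stood at 14.04, 14.25, 13.68, 14.04 and 13.92 in shScr replicates 1 to 5, at 12.03, 12.18, 12.41, 12.18 and 11.93 in shTet1, and at 13.28, 13.81, 14.62, 13.61 and 13.73 in shTet2. Each shTet1 library was below each library of the other groups, and shTet2 replicate 3 held the most Tet1 RNA of all 15. The difference between shTet1 and shScr was −1.84 (SE 0.19, limma, Benjamini-Hochberg adjusted p = 0.000228, lower in 5 of 5 same-numbered libraries), which left 27.8% of the normalised reads. It was −2.03 within replicates 1 and 2 and −1.70 within replicates 3 to 5.

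Tet2 (chromosome 3, 133126643 to 133207354, minus strand) stood at 13.15, 13.24, 13.26, 13.52 and 13.45 in shScr, at 13.10, 12.72, 13.27, 13.02 and 13.17 in shTet1, and at 11.32, 11.12, 11.61, 11.48 and 11.59 in shTet2. Its shTet2 libraries were all below those of both other groups, which overlapped each other. The difference between shTet2 and shScr was −1.90 (SE 0.13, limma, Benjamini-Hochberg adjusted p = 3.67e-07), which left 26.6% of the normalised reads. For both targets the exact permutation p was 0.00794 (two-sided), the smallest that 5 against 5 libraries allow.

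Each knockdown was then asked about the TET gene it did not target. Tet2 differed by −0.27 in shTet1 (95% confidence interval, CI, −0.55 to 0.0082, limma, Benjamini-Hochberg adjusted p = 0.440) and was lower in 4 of 5 same-numbered libraries, which left 83.0% of its normalised reads. Tet1 differed by −0.18 in shTet2 (−0.58 to 0.22) and was lower in 4 of 5, by numbers that were not taken to pair shTet2 with shScr. The exception was shTet2 replicate 3, the shallowest library, without which the difference was −0.38. Within replicates 1 and 2 Tet1 differed by −0.60 in shTet2, and within replicates 3 to 5 by 0.10. Neither difference passed the threshold in any setting tried.

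Tet3 (chromosome 6, 83312367 to 83391672, minus strand) was covered by 38 to 189 reads per library, so its values carried more counting error than those of Tet1 and Tet2. It stood at 7.38, 6.86, 6.81, 7.83 and 7.23 in shScr, at 7.44, 6.67, 6.87, 6.79 and 6.25 in shTet1, and at 6.71, 6.79, 8.12, 6.996 and 6.82 in shTet2. The groups overlapped, and shTet2 replicate 3 was again the highest library. Tet3 differed by −0.42 in shTet1 (95% CI −0.996 to 0.15) and by −0.13 in shTet2 (−0.71 to 0.44), with Benjamini-Hochberg adjusted p-values by limma of 0.602 and 0.913. Without shTet2 replicate 3 the latter was −0.39, and without shScr replicate 4 it was 0.016. Within replicates 1 and 2 Tet3 differed by −0.068 in shTet1 and by −0.37 in shTet2, and within replicates 3 to 5 by −0.66 and 0.022. Between the knockdowns it was −0.30 and 0.68 in these sets. A higher level of Tet3 RNA in either knockdown was not detected at this depth.

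Added up per length, RNA of the 3 TET genes came to 99.1, 102, 83.9, 115 and 98.9 RPKM in shScr replicates 1 to 5. The sum was 60.8, 50.1, 64.1, 58.1 and 51.9 in shTet1, and 46.7, 58.9, 91.6, 57.3 and 55.4 in shTet2. All shTet1 libraries and 4 of 5 shTet2 libraries lay below the lowest shScr library, and shTet2 replicate 3 lay inside the shScr range. The mean sum was 57.1% of shScr in shTet1 and 62.1% in shTet2. The composition of what remained differed between the knockdowns, because Tet1 RNA was 1.00 ± 0.190 times that of Tet2 in shScr (SD, n = 5 each), 0.338 ± 0.0631 times in shTet1 and 3.44 ± 1.13 times in shTet2, a contrast fixed by the choice of targets. Tet3 made up 0.477%, 0.592% and 0.714% of the sum on average in the same order.

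**Figure D2:**
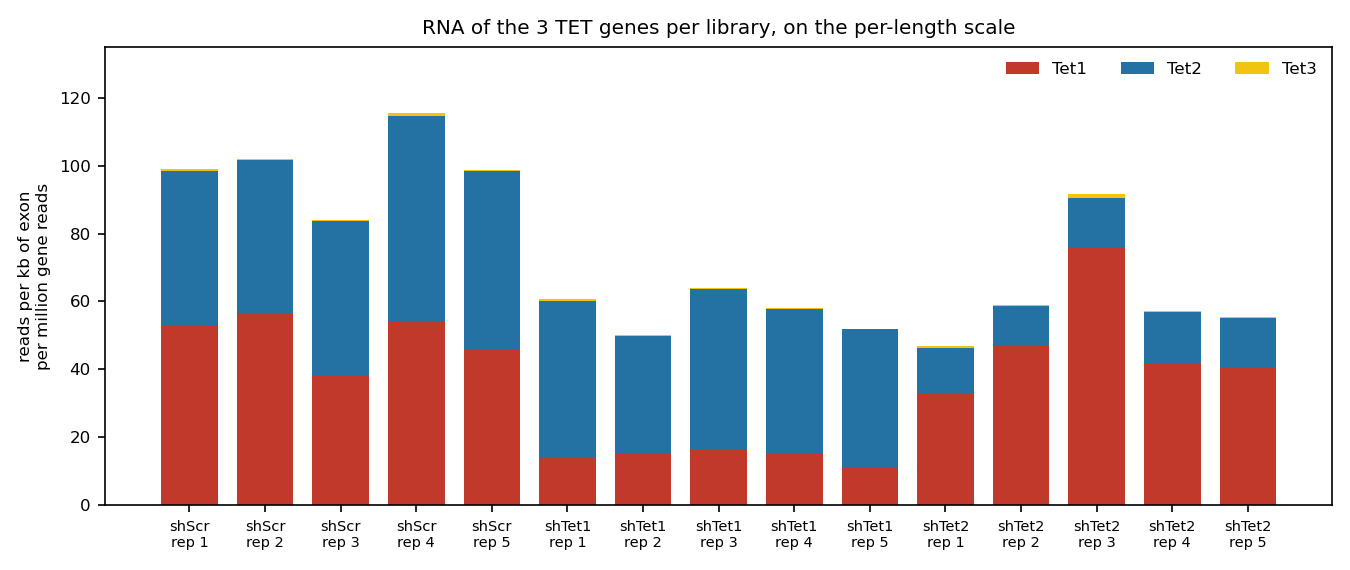
Level per length in RPKM (y axis, from 0) of Tet1, Tet2 and Tet3, stacked, in each of the 15 libraries (x axis). In shScr both large bars are of like height and sum to 83.9 to 115, in shTet1 mainly Tet2 is left and in shTet2 mainly Tet1, and shTet2 replicate 3 reaches 91.6. Tet3 is a thin band on top.

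Tdg encodes thymine DNA glycosylase, which removes the oxidised bases made by TET enzymes. Tdg (chromosome 10, 82092573 to 82113544) stood at 9.04, 8.61, 9.08, 9.03 and 9.15 in shScr, at 9.26, 9.23, 9.33, 8.997 and 8.96 in shTet1, and at 8.58, 8.95, 9.30, 8.73 and 8.77 in shTet2. The 3 groups overlapped, and shScr replicate 2 was well below the other control libraries. Tdg differed from shScr by 0.17 in shTet1 (95% CI −0.15 to 0.49) and by −0.12 in shTet2 (−0.44 to 0.20). The difference in shTet1 was 0.42 within replicates 1 and 2 and 0.0083 within replicates 3 to 5, and without shScr replicate 2 it was 0.080. In shTet2 the same sets gave −0.061 and −0.16, and leaving out 1 library at a time gave −0.23 to −0.047. Between the knockdowns it was −0.29 (−0.61 to 0.030, limma, Benjamini-Hochberg adjusted p = 0.387), with the shTet2 library lower in 5 of 5 same-numbered libraries. Its reads are uncertain, because 6.83% of its exon bases lie opposite exons of Glt8d2 and 12.3% of its transcript matches other places of the genome exactly over 75 bases.

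Ogt and Mgea5 write and erase O-GlcNAc, a sugar on serine and threonine of nuclear proteins, and OGT is itself a binding partner of TET enzymes. Ogt (chromosome X, 98835399 to 98879690) varied least of the 10 genes between control libraries, with a coefficient of variation of 5.51% in normalised reads. It stood at 12.41, 12.43, 12.45, 12.59 and 12.54 in shScr, at 12.51, 12.22, 12.53, 12.30 and 12.58 in shTet1, and at 12.18, 12.20, 12.51, 11.92 and 12.57 in shTet2. The shScr libraries lay within 12.41 to 12.59, and libraries of both knockdowns lay inside and below that range. Ogt differed by −0.056 in shTet1 (95% CI −0.33 to 0.22), while the difference in shTet2 was −0.21 (−0.49 to 0.066). The first of these turned to 0.0016 under quantile normalisation.

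Mgea5 (chromosome 19, 45824751 to 45858236; named Oga in RefSeq) encodes the O-GlcNAc hydrolase, and 10.9% of its exon bases lie opposite the predicted gene Gm15491. It stood at 12.78, 13.21, 13.27, 13.20 and 12.69 in shScr, at 13.13, 13.26, 13.32, 13.39 and 12.98 in shTet1, and at 12.43, 12.69, 12.83, 13.05 and 12.70 in shTet2. In every replicate number the shTet1 library was the highest of the 3, and in 4 of 5 the shTet2 library was the lowest. Mgea5 differed from shScr by 0.18 in shTet1 (95% CI −0.12 to 0.49) and by −0.29 in shTet2 (−0.60 to 0.018), and neither passed the threshold. The difference in shTet2 was −0.43 within replicates 1 and 2 and −0.20 within replicates 3 to 5.

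Set directly against each other, the knockdowns differed in Mgea5 by −0.47 (shTet2 minus shTet1, SE 0.15, 95% CI −0.78 to −0.17), so that shTet2 held 72.2% of the normalised reads of shTet1. The groups overlapped by a single library on each side, shTet2 replicate 4 and shTet1 replicate 5. By limma, the Benjamini-Hochberg adjusted p was 0.0818 and the exact permutation p was 0.0159 (two-sided). Same-numbered libraries of these groups deviated together, which was not told apart from the division of replicates 1 and 2 from 3 to 5. With the replicate number as a block, the adjusted p by limma became 0.0038, where 11.2% of all genes tested were called. It was 0.0214 with array weights and 0.0496 with a term for replicates 1 and 2 against 3 to 5, and stayed over 0.05 in the other fitted settings. The difference was −0.63 within replicates 1 and 2 and −0.37 within replicates 3 to 5. The level of Ogt relative to Mgea5, per length, averaged 0.439 ± 0.0890 (SD, n = 5 each) in shScr, against 0.372 ± 0.0759 after the Tet1 hairpin and 0.470 ± 0.113 after the Tet2 hairpin, and the libraries overlapped.

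Cxxc4 and Cxxc5 encode small proteins with a CXXC zinc finger that binds unmethylated CpG, and Cxxc4 (also called IDAX) carries the CXXC domain of an ancestral Tet2 gene and can lead to loss of TET2 protein. Cxxc4 (chromosome 3, 133899784 to 133925117) was at the edge of detection, with 0, 4, 9, 10 and 0 reads in shScr replicates 1 to 5, 7, 6, 6, 11 and 3 in the shTet1 libraries, and 5, 4, 9, 18 and 8 in those of shTet2. No library of any group exceeded 18 reads, and the groups overlapped. The count of 0 in shScr replicates 1 and 5 allows up to 3 reads, or 0.142 and 0.134 per 1000000 gene reads. A difference in Cxxc4 was not detectable at this depth, and its fitted values rest on how the transformation treats 0 reads.

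Cxxc5 (chromosome 18, 35989472 to 36021341) stood at 9.62, 9.11, 9.26, 9.02 and 9.12 in shScr, at 10.04, 9.95, 9.50, 9.71 and 9.16 in shTet1, and at 9.19, 9.35, 9.57, 8.97 and 8.89 in shTet2. The shTet1 library was above the same-numbered shScr library in 5 of 5, yet shScr replicates 1 and 3 lay above the lowest shTet1 library. Cxxc5 differed by 0.44 in shTet1 (SE 0.18, 95% CI 0.069 to 0.82), 140% of the normalised reads of shScr. It was 0.63 within replicates 1 and 2 and 0.32 within replicates 3 to 5. By limma, the Benjamini-Hochberg adjusted p of this difference was 0.322 (0.0742 with the replicate block), and the exact permutation p was 0.0635 (two-sided).

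In shTet2, Cxxc5 differed from shScr by −0.036 (−0.41 to 0.34), a value that turned to 0.028 when reads were modelled with voom. Between the knockdowns it was −0.48 (shTet2 minus shTet1, SE 0.18, −0.86 to −0.10), with shTet2 lower in 4 of 5 same-numbered libraries. By limma, the Benjamini-Hochberg adjusted p was 0.168, and it became 0.0334 with the replicate block, where 11.2% of all genes tested were called. Within replicates 1 and 2 this difference was −0.72, and within replicates 3 to 5 it was −0.32. Replicate 3 was the exception, with 9.50 in shTet1 and 9.57 in shTet2.

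Idh1 and Idh2 encode the cytosolic and the mitochondrial NADP-dependent isocitrate dehydrogenase, which make α-ketoglutarate, the cosubstrate of TET enzymes. Idh1 (chromosome 1, 65205190 to 65233053) stood at 11.60, 12.12, 12.23, 11.67 and 12.20 in shScr, at 12.03, 12.16, 12.30, 12.07 and 12.54 in shTet1, and at 12.44, 12.61, 11.92, 12.16 and 12.52 in shTet2. All 3 groups overlapped, with the spread of shScr formed by replicates 1 and 4 below the others. Idh1 differed by 0.26 in shTet1 (95% CI −0.091 to 0.60), where 5 of 5 same-numbered libraries were higher by 0.036 to 0.43. In shTet2, 4 of 5 were higher, by numbers that were not taken to pair shTet2 with shScr. Idh1 differed there by 0.36 (SE 0.17, 0.017 to 0.71), and the Benjamini-Hochberg adjusted p by limma was 0.402. The exact permutation p of the latter was 0.0952 (two-sided), and the difference was 0.67 within replicates 1 and 2 and 0.16 within replicates 3 to 5.

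Idh2 (chromosome 7, 87239732 to 87260278) stood at 10.61, 10.57, 10.64, 10.81 and 10.56 in shScr, at 11.36, 11.39, 10.53, 11.13 and 10.38 in shTet1, and at 11.26, 11.42, 10.23, 11.08 and 10.58 in shTet2. The shScr libraries spanned 0.25 between the lowest and the highest, whereas both knockdown groups spread to either side of them, with replicates 1, 2 and 4 above and replicate 3 below. The differences from shScr were 0.32 in shTet1 (95% CI −0.15 to 0.79) and 0.28 in shTet2 (−0.19 to 0.74). Within replicates 1 and 2 they were 0.79 and 0.75, and within replicates 3 to 5 they were 0.0078 and −0.040. Since both comparisons use the same shScr libraries, their likeness is no independent support for either. Idh1 RNA was 2.67 ± 0.651, 2.72 ± 1.34 and 2.85 ± 0.796 times that of Idh2 (SD, n = 5 each) per length in shScr, shTet1 and shTet2.

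**Figure D3:**
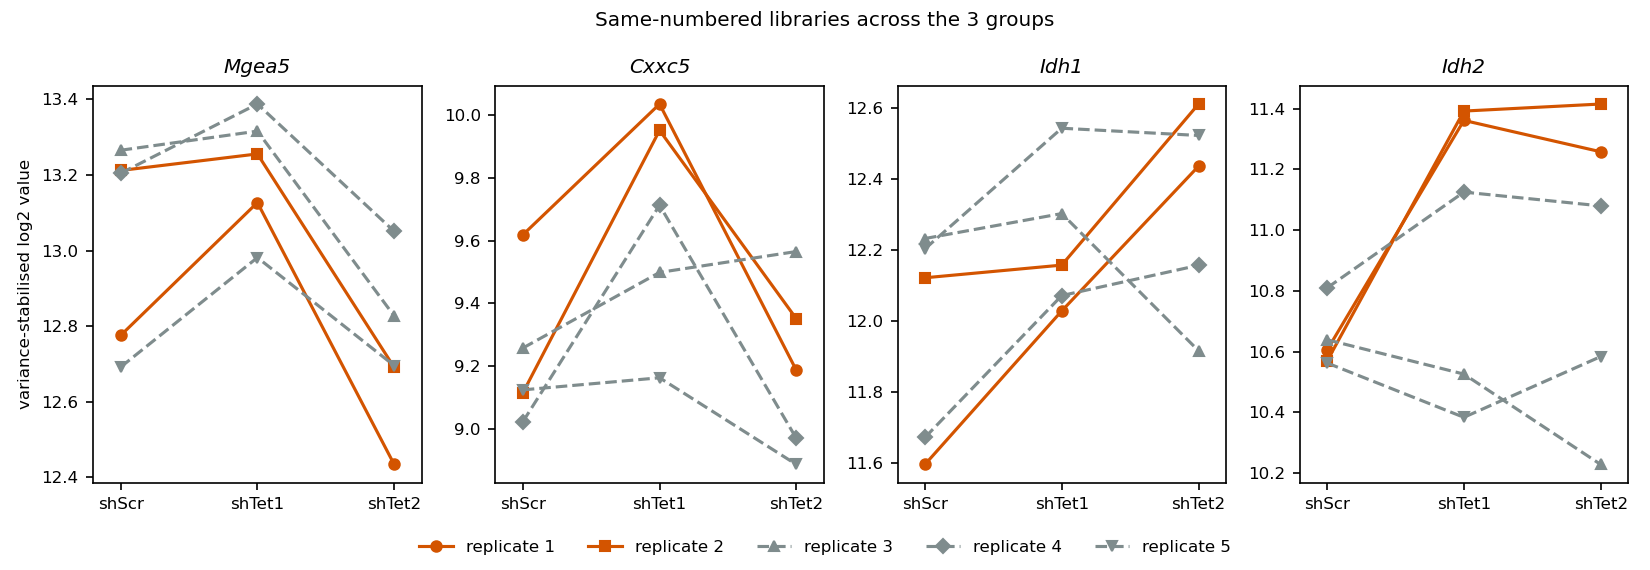
Variance-stabilised log2 value (y axis) of Mgea5, Cxxc5, Idh1 and Idh2 in the 3 groups (x axis), with a line through the libraries of each replicate number (solid orange, replicates 1 and 2; dashed grey, replicates 3 to 5). Mgea5 is higher in shTet1 than in shTet2 in 5 of 5 numbers, whereas for Idh2 the lines of replicates 1 and 2 climb from shScr to shTet1 by 0.79 on average and those of replicates 3 to 5 by 0.0078.

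Seen over the 10 genes, each knockdown moved its own target past the threshold and no other member. In shTet1 against shScr, 1 of 10 genes had an adjusted p under 0.05 (Tet1, lower), where 0.0718% of all genes tested did, and 1 of 10 had groups that did not overlap, against 2.62% of all genes. Without adjustment, 2 of 10 (Tet1 and Cxxc5) had a p under 0.05, against 11.8% of all genes. The median difference of the 10 was 0.18, with 6 above 0, and the median of all genes was 0.013.

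In shTet2 against shScr, 1 of 10 was called (Tet2, lower) where 0.39% of all genes were, and 1 of 10 did not overlap, against 2.7%. Without adjustment, 2 (Tet2 and Idh1) had a p under 0.05, against 11.6% of all genes. The median difference was −0.13, with 3 above 0, against 0.038 over all genes. Centring each library on its median shifted every difference of this comparison by −0.11.

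In shTet2 against shTet1, 2 of 10 were called (Tet1 higher by 1.66 and Tet2 lower, at −1.63) where 4.24% of all genes were. The same pair did not overlap, against 6.04% of all genes, and 4 of 10 had an unadjusted p under 0.05 (Tet1, Tet2, Mgea5 and Cxxc5) against 15.7%. Because the hairpins aimed at Tet1 and Tet2, their calls were set by the design, and the other 8 genes gave 0 calls in each comparison, with 1, 1 and 2 of them under an unadjusted p of 0.05. With the replicate block the calls of these 8 were 0, 0 and 2 (Mgea5 and Cxxc5, both lower in shTet2 than in shTet1), where 4.8%, 4.31% and 11.2% of all genes were called.

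**Figure D4:**
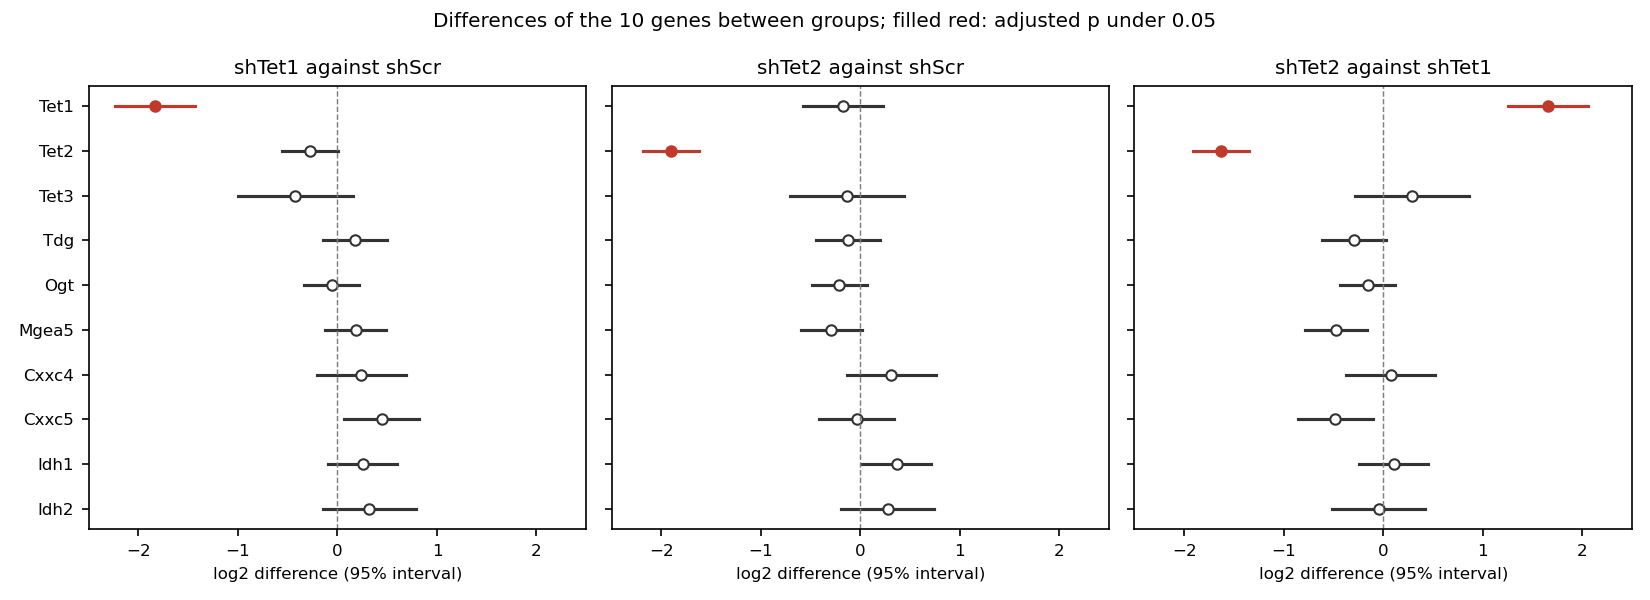
Difference on the log2 scale (x axis) of each of the 10 genes (y axis) in the 3 comparisons, with its 95% CI from limma as a bar. Red filled points have an adjusted p under 0.05, which are Tet1 at −1.84 and Tet2 at −1.90 in their own knockdowns and both targets between the knockdowns, and open points do not. The intervals of Cxxc5 in shTet1 and of Idh1 in shTet2 lie just above 0, and those of Mgea5 and Cxxc5 between the knockdowns lie below it.

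To place these genes in their pathway, 79 further genes were taken in 6 lists: base excision and deamination, proteins that bind TETs, readers of oxidised cytosine, other CXXC proteins, synthesis of UDP-GlcNAc (the donor used by OGT) and α-ketoglutarate metabolism. All 79 were tested. In shTet1 against shScr 0 of 79 passed the threshold, and 5 had an unadjusted p under 0.05, against 11.8% of all genes. In shTet2 against shScr 0 of 79 passed, and 6 had an unadjusted p under 0.05, against 11.6% of all genes. In shTet2 against shTet1 3 of 79 passed, 1 higher and 2 lower, which is 3.8% against 4.24% of all genes tested, and 12 had an unadjusted p under 0.05, against 15.7%. The median differences over the 79 genes were 0.040, −0.058 and −0.097 in the same order, against 0.013, 0.038 and 0.015 over all genes.

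Of the 22 genes of base excision and deamination, Gadd45a passed between the knockdowns. It encodes a stress-induced protein that has been linked to DNA repair and demethylation, and it ranged from 10.12 to 10.64 in shScr, from 10.35 to 10.87 in shTet1 and from 9.32 to 10.06 in shTet2. All shTet2 libraries lay below those of both other groups, and the difference from shTet1 was −0.87 (SE 0.16, limma, Benjamini-Hochberg adjusted p = 0.00362). Its difference from shScr was −0.57 in shTet2, which did not pass, and the list median was 0.11 in shTet1 (0.054 with median centring) and −0.026 in shTet2 (0.055 under voom).

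Among the 6 genes of UDP-GlcNAc synthesis, Uap1, the pyrophosphorylase of the last step, passed. Uap1 ranged from 10.04 to 10.74 in shScr, from 10.18 to 10.47 in shTet1 and from 10.82 to 11.22 in shTet2. Here the shTet2 libraries lay above all others, with a difference from shTet1 of 0.70 (SE 0.15, limma, Benjamini-Hochberg adjusted p = 0.00928) and from shScr of 0.60 (adjusted p = 0.0813).

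Of the 21 genes of α-ketoglutarate metabolism, Sdhc passed between the knockdowns. Sdhc encodes a membrane subunit of succinate dehydrogenase, whose substrate succinate is a product and an inhibitor of the TET reaction. It ranged from 10.45 to 10.82 in shTet1 and from 9.73 to 10.23 in shTet2, a difference of −0.69 (SE 0.15, limma, Benjamini-Hochberg adjusted p = 0.0113). The knockdowns did not overlap for Sdhc, and its shScr libraries ranged from 10.09 to 10.85, across both. In shTet1 against shScr 19 of the 21 differences of this list were above 0, with 0 genes past the threshold. Their median was 0.14, against 0.013 over all genes, and the share of all genes above 0 was not counted. Quantile normalisation and voom also gave 19 above 0 (medians 0.16 and 0.19), whereas median centring left 13 above 0 and a median of 0.090.

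The lists of TET-binding proteins (16 genes), readers of oxidised cytosine (6) and other CXXC proteins (8) gave 0 genes past the threshold in all 3 comparisons. Lin28a of the TET-binding list did pass between the knockdowns, higher in shTet2, under quantile normalisation (0.69), voom (0.66), array weights (0.60), the fit of only these groups and the term for replicates 1 and 2 against 3 to 5 (both 0.63). Prdm14 of the same list passed with array weights and with the term for replicates 1 and 2 against 3 to 5. Sall1, of the readers, passed with array weights. The median differences of the 3 lists were −0.035, −0.021 and −0.085 in shTet1 and −0.20, −0.12 and −0.18 in shTet2, in that order of lists. For the first 2 of these lists the median in shTet1 turned to 0.013 and 0.022 under voom.

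With the replicate number as a block, which the spread of same-numbered libraries supported for the comparisons with shTet1, the list genes past the threshold became 2 in shTet1 against shScr, where 4.8% of all genes were called. These were Sdha, another subunit of succinate dehydrogenase (0.42, limma, Benjamini-Hochberg adjusted p = 0.0326), and Lin28a, an RNA-binding protein that can also bring TET1 to DNA (−0.64, adjusted p = 0.0159). In shTet2 against shScr, whose numbers did not all pair, the block gave 4 of 79 against 4.31% of all genes (Apobec1, Gadd45a, Sdhc and Uap1). Between the knockdowns it gave 8 of 79 against 11.2% of all genes, namely Gadd45a, Sdhc and Uap1 with Sdhd, Wdr76, Lin28a, Prdm14 and Vprbp.

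**Figure D5:**
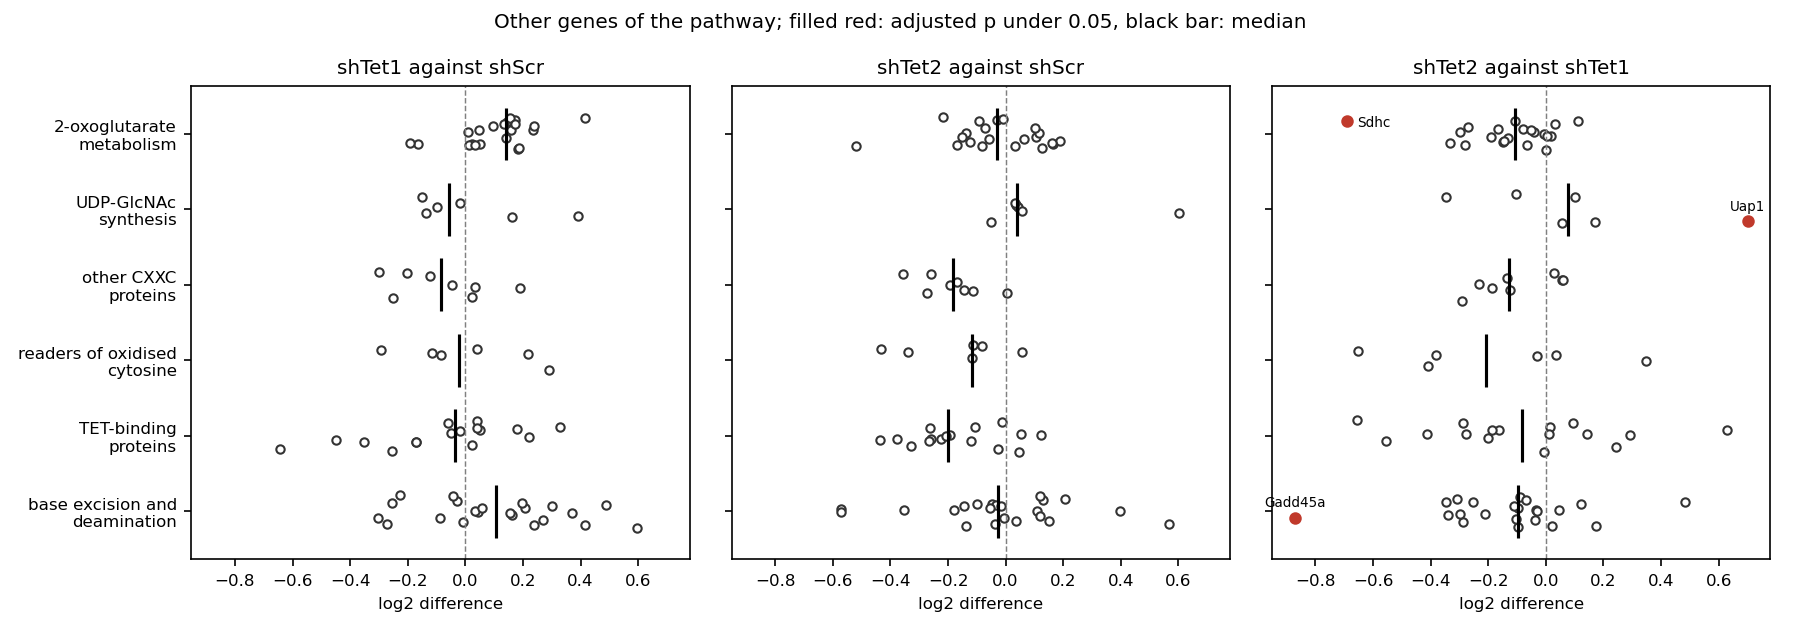
Difference on the log2 scale (x axis) of the 79 further genes by list (y axis; points are genes, spread vertically at random within a list) in the 3 comparisons, with the list median as a black bar. Red filled and named points have an adjusted p under 0.05. None is seen against shScr, and Gadd45a (−0.87), Sdhc (−0.69) and Uap1 (0.70) are seen between the knockdowns.

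Finally, the genes whose values over the 15 libraries were most like those of each target were sought among 12039 genes whose mean was at least 2 units over the table minimum. Genes with only a predicted or clone name were skipped in both rankings below. Because each target is low in 1 group, any gene that differs in that group ranks high, and the correlation of deviations from group means is given beside it. For Tet1 the nearest were Peg3 (Pearson r = 0.960, 0.897 for deviations), Lpp (0.928, 0.781), Map2k4 (0.919, 0.410), Cpd (0.905, 0.273) and Rc3h2 (0.893, 0.717). For Tet2 they were Necap1 (0.960, 0.485), Ormdl2 (0.955, 0.587), l7Rn6 (0.946, 0.506), Osbpl8 (0.945, 0.474) and Adprh (0.942, 0.178). Ranked by deviations alone, 0 of these 5 genes remained among the 5 nearest for either target. The libraries share a normalisation and fall into the 3 groups, so these values describe likeness of pattern over n = 15 libraries. For Tet1, shTet2 replicate 3 stood at 14.62 against a shTet2 mean of 13.81, and r without this library was not computed.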

How the data were processed

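The 15 directional, rRNA-depleted RNA libraries of ESCs were sequenced by the authors, and reads were trimmed with Trim Galore 0.3.3, aligned to mm9 with TopHat2 2.0.9 (1 position kept per read) and counted per gene in Seqmonk. The deposited gene values are on a variance-stabilised, log2-like scale made by the authors with DESeq2, in which the minimum of 4.25 stands for 0 reads. Use of strand in the counting is not given in the sources used here. When the transformation was inverted, 100% of values above the minimum came out as whole reads (tolerance 0.05), and these were used for reads, normalised reads and per-length levels. Intervals and floors for reads cover counting error only.

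The 10 genes and all lists were chosen with earlier results of these data known. Genes above the minimum in at least 5 of 15 libraries (19490) were fitted together in limma 3.58.1 (R 4.3.3, eBayes with trend, group as the only term, two-sided, 95% intervals), with Benjamini-Hochberg adjustment over all of them and a threshold of 0.05. Exact permutation tests compared 5 with 5 libraries, two-sided. The labels do not say whether replicates were separate cultures, so p-values measure the spread between these libraries, which may be technical. The script for the fit was tested on simulated data. Named were the 10 genes, list genes past the threshold (at most 6 per list and comparison, by size) and the 5 genes most like each target. List genes called only under another setting were named after their values were seen. After the results were known, 1 gene was taken out of the list of α-ketoglutarate metabolism and of all list counts, and it is not reported here, so these counts and medians describe only the genes kept.

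After subtraction of group means, libraries with the same number correlated at 0.374 to 0.657 between shTet1 and shScr and at 0.330 to 0.731 between shTet2 and shTet1, every pair above 0.1, so the numbers were taken to pair these groups. Between shTet2 and shScr they correlated at 0.569, 0.400, 0.00789, 0.769 and 0.572 in replicates 1 to 5. Only replicate 3 was below 0.1, and because of it the numbers were not taken to pair these groups. For shTet2 against shScr, counts over same-numbered libraries therefore only describe these libraries. Correlations between libraries with different numbers were not computed, and replicates 1 and 2 stood apart from 3 to 5 in all groups. Pairing by number was therefore not told apart from that division in any comparison. Alternatives were the filter, no trend, a fit of only the groups compared, quantile normalisation, median centring, voom on recovered reads, array weights, the block, a term for replicates 1 and 2 against 3 to 5 (added after seeing the data), the sets of replicates, the transcript length and leaving out each library. Positions are GENCODE vM1 on mm9, and promoters are RefSeq on GRCm38.p6. The repeat table and small RNA libraries were not used here.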

Additional observations from a re-analysis of the deposited data

Results flagged for a closer look

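In 2 of 30 sets of 5 libraries (10 genes in 3 groups), 1 library lay far from the other 4, with a gap to the nearest over 0.71 of the whole range. Chance gives about 1 in 20 such sets. Tet3 was 8.12 in shTet2 replicate 3 and 6.71 to 6.996 in the other shTet2 libraries (gap 0.800 of the range), and the same library, which had the fewest reads, was also the highest of the 15 for Tet1. Tdg was 8.61 in shScr replicate 2 and 9.03 to 9.15 in the other shScr libraries (gap 0.787 of the range).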

How the results depend on the processing

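Tet1 in shTet1 and Tet2 in shTet2 stayed past the threshold in every fitted setting. Leaving out 1 library at a time gave −1.91 to −1.77 for Tet1 and −1.95 to −1.83 for Tet2, 1, 1 and 2 of the 10 genes past the threshold in the 3 comparisons, and 0, 0 and 3 to 5 list genes (3 with all libraries and 5 without shTet1 replicate 5). Within replicates 1 and 2 Tet1 was −2.03. The replicate block raised the genes past the threshold between the knockdowns to 4 of 10 and the list genes to 2, 4 and 8, and the block changed no other call of the 10 genes. The 4 in shTet2 against shScr rest on numbers that were not taken to pair these groups. Array weights gave 2 list genes in shTet2 against shScr and 6 between the knockdowns (1.45% and 6.39% of all genes), and the term for replicates 1 and 2 against 3 to 5 gave 2 and 5 (1.36% and 6.48%). With the longest transcript, per-length levels in shScr, shTet1 and shTet2 became 6.03, 7.06 and 5.83 for Tdg, 47.3, 46.9 and 43.3 for Ogt, and 38.9, 53.2 and 52.6 for Idh2, and 94.6 for Idh1 in shTet1. Several differences that did not pass the threshold changed sign: Ogt in shTet1 (0.0016 with quantile normalisation), Cxxc5 in shTet2 (0.028 with voom), Cxxc4 between the knockdowns (−0.043 with quantile normalisation and −0.038 with array weights) and Idh2 between the knockdowns (0.0056 and 0.056). On leaving out 1 library, Tet3 in shTet2 ranged from −0.39 to 0.016, Cxxc5 in shTet2 from −0.13 to 0.062 and Idh2 between the knockdowns from −0.19 to 0.13. Sign also differed between the sets of replicates. Between the knockdowns Idh1 was 0.43 within replicates 1 and 2 and −0.11 within replicates 3 to 5. In the same sets Cxxc4 between the knockdowns was −0.11 and 0.20, and Cxxc5 in shTet2 against shScr was −0.098 and 0.0058. The cause of these changes was not tested. Counts of calls within replicates 1 and 2 or 3 to 5 were not run. Depth limits Cxxc4 (0 to 18 reads per library) and Tet3 (38 to 189), and RNA levels say nothing of TET protein or activity.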
